A study of Mus musculus with 6 samples.

Results

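The genes described here are the interferon, schlafen and antigen presentation genes of a mouse myoblast line. They were the genes whose single symbol in the array's probe annotation names an interferon regulatory factor, a STAT factor, an interferon-induced protein (Ifi, Ifit, Ifitm, Isg, Oas, Mx), a guanylate-binding protein (Gbp), a schlafen (Slfn), a gene of the mouse major histocompatibility complex (MHC, symbols starting with H2-), a peptide transporter (Tap), tapasin (Tapbp) or beta-2 microglobulin (B2m). The rule found 94 probe sets for 74 of 8251 genes with a probe set of 1 symbol, and each gene is represented by its brightest probe set over the 6 arrays. C2AS12 cells, derived from mouse C2 myoblasts, were infected with adenovirus and total RNA was hybridised to 6 oligonucleotide arrays. The 3 treatments were virus for wild-type p300, a histone acetyltransferase and coactivator, the same virus with doxycycline, and virus for mutant p300, each sampled just before the change to low-serum medium (0 h) and 24 h later, so that 1 array stands for every combination. According to the series text, cells given wild-type p300 survived, and those of both other treatments died by apoptosis. Time and medium changed together and cannot be told apart. All 6 arrays are of infected cells, so adenovirus, which cells can sense and answer with interferon, is common to every group, and no uninfected array was analysed here. The labels name neither the mutation nor the role of doxycycline in these cells, nor whether an array holds 1 culture or a pool. The series text counts 6 biological replicates, but no group has more than 1 array, so the spread behind each p-value is that of these arrays alone and may be technical.

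Type I and type II interferons bind cell surface receptors, activate Janus kinases and STAT factors, and with the interferon regulatory factors switch on a large set of antiviral effector genes. The same pathway raises antigen presentation. MHC class I heavy chains pair with beta-2 microglobulin, and the peptide transporter and tapasin load them with peptides from the proteasome. Cultured myoblasts respond to interferon and carry class I, while class II belongs mainly to professional antigen-presenting cells. Schlafens are a family of growth-regulatory proteins that interferon also induces.

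Promoters of 5 of these genes are shown first, because the arrays set them apart in different ways. H2-D1, H2-K1 and B2m make up the class I molecule, Slfn2 is the member that passed the test at 24 h, and Ifit1 is a dim interferon gene seen on 1 array. Sequences are RefSeq's, assembly GRCm38.p6, from 250 bases before the annotated start to 50 after it, on the gene's own strand. Capitals mark matches, on either strand, to the core of the interferon-stimulated response element (ISRE; GAAA, any 2 bases, GAAA) or to the NF-kB consensus, and no gamma-activated site (GAS; TTC, any 3 bases, GAA), the STAT motif, lay in these 5 windows. Some NF-kB matches overlap each other or sit on both strands at the same bases.
B2m, chr2:122147437-122147736, plus strand: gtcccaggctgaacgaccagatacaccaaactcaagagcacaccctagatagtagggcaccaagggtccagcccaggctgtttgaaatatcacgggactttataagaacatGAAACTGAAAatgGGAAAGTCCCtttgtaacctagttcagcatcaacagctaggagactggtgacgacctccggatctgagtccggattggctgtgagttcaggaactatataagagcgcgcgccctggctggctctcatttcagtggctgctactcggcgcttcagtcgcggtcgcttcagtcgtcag
H2-D1, chr17:35262844-35263143, plus strand: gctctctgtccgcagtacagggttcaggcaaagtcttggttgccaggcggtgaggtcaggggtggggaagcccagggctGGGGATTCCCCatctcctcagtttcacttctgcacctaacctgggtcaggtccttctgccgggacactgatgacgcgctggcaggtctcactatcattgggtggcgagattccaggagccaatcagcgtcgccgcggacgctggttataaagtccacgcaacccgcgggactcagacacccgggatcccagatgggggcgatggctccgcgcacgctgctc
H2-K1, chr17:34000298-34000597, minus strand: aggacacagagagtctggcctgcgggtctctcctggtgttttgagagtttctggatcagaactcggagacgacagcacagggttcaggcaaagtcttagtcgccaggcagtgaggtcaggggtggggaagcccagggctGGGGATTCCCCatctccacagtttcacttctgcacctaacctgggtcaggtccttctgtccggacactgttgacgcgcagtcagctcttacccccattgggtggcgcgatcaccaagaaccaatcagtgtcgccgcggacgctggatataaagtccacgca
Ifit1, chr19:34640639-34640938, plus strand: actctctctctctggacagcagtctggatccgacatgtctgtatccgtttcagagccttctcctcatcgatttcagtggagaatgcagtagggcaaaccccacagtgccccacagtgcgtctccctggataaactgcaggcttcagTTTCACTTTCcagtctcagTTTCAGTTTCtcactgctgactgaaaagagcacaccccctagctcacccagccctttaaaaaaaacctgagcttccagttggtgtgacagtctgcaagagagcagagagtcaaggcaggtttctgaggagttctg
Slfn2, chr11:83064862-83065161, plus strand: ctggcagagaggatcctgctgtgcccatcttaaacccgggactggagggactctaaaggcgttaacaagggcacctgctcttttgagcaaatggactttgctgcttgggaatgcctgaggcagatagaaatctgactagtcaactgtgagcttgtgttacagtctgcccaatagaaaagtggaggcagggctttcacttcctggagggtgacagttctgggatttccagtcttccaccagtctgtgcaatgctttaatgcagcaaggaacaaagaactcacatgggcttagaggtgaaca

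The B2m window holds an ISRE core that begins 139 bases before the start and an NF-kB match that begins 126 bases before it. In H2-D1 and H2-K1 the capitals are an NF-kB match that begins 171 and 111 bases before the start, with the same letters in both genes; H2-K1 has another annotated start close by, which gives a second window with the same match. Ifit1 has ISRE cores 104 and 85 bases before its start. The Slfn2 window holds none of the 3 motifs in these letters. Of the 74 genes, 58 had a promoter in the table, of which 14 held an ISRE core, 11 a GAS core and 16 an NF-kB match. Over all 27025 genes in the table the shares, counted by gene in the same way, were 3.99% for the ISRE core, 9.55% for the GAS core and 9.55% for the NF-kB consensus. Over the 32544 distinct windows they were 3.45%, 8.33% and 8.49%. A match is a description of the letters and not a measured binding site.

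Of the 74 genes, 31 had a mean signal over the 6 arrays of at least 75.2, the median of all probe sets, and were tested. The other 43 lay below it, 9 of them at or under a signal of 16.4 on all 6 arrays; this floor is the 25th percentile over every array, and lower signals were raised to it before log2 was taken. Among those tested, 18 probe sets had a plain name, and 13 had a suffix that marks possible cross-hybridisation. Most of the 13 are class I heavy chains, and Slfn2, Ifi204, Irf7 and Stat5a are among them. The trimmed mean signal was between 199.3 and 200 on all arrays. Relative to their mean over the 6 arrays, 9 spike-in control probe sets averaged -0.18 on the log2 scale with wild-type p300 at 24 h, against 0.13 and 0.23 for doxycycline and mutant. Actin's 3′ to 5′ signal ratio, which rises as RNA degrades, was 1.33 there against 1.45 and 1.49. Of 10 myoblast markers, 8 were tested and bright enough, among them Myod1 at 419.1 to 813 and Des at 264.6 to 496.3. Mef2c lay under the floor on all arrays. Of 20 leukocyte markers 6 lay under the floor on every array, among them Ptprc, the pan-leukocyte antigen, at 1.7 to 15.9, while 5 were bright enough to be tested (Cd14, Cd68, Laptm5, Cd53 and C1qb, at mean signals of 376, 137, 131, 110 and 94.3). Of 10 lymphocyte markers 5 lay under the floor on every array, among them the T cell receptor chain Cd3e at 12.3 to 15.7, and Cd4, at a mean of 84.5, was tested.

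**Figure D1:**
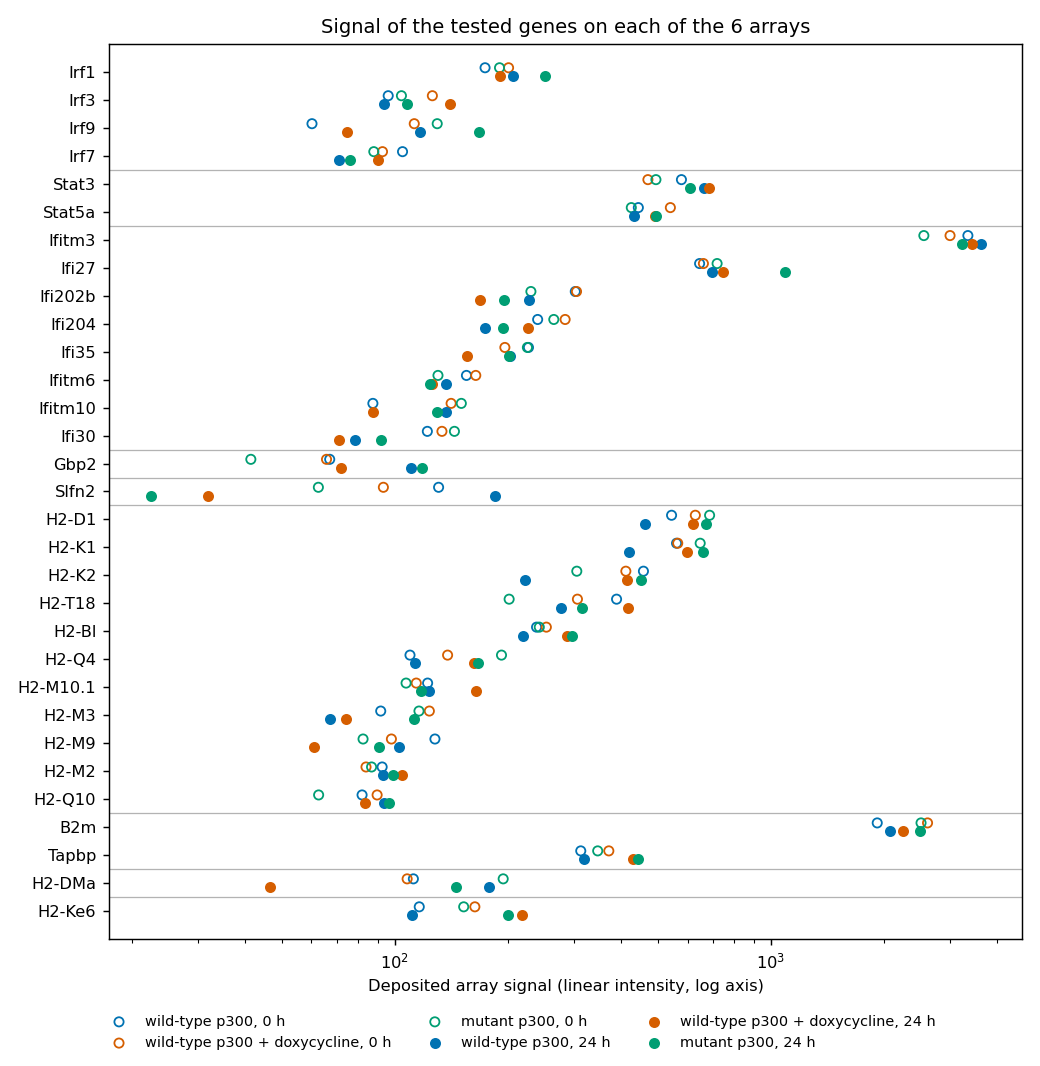
Deposited signal (linear intensity on a log axis) of the 31 tested genes on each array, with open circles for 0 h, filled circles for 24 h and colours for the 3 treatments; lines part the gene groups. Ifitm3 and B2m are the brightest, and Slfn2 spreads from 22.4 to 185.

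Setting wild-type p300 against both other treatments at 24 h asked which of these genes go with survival. Slfn2, which keeps T cells and monocytes in quiescence, was called higher in the wild-type array, a call that depended on the filter. Its signal at 0 h was 130.7 for wild type, 93.2 for doxycycline and 62.6 for mutant. At 24 h the values were 185, 31.8 and 22.4. The wild-type array was thus the highest of the 3 at both times, and the gap at 24 h came from a higher value with wild-type p300 and lower values in both other treatments. The difference at 24 h was 2.79 ± 0.45 on the log2 scale (SE; 1 wild-type array against 2, limma adjusted p = 0.0327). This fit lends the single wild-type array the spread of the other groups. Over 13 alternatives the difference lay between 2.12 and 3.16. In the alternatives that kept all 6 arrays the limma adjusted p lay between 0.000805 and 0.29. The lowest came from scaling to the spike-in controls, which called 6.78% of all probe sets. Slfn2 passed the filter through the wild-type array at 24 h: its mean was 87.6 over the 6 arrays and 68.1 over the other 5, under 75.2. It was not called with no filter (adjusted p = 0.29), with the filter at the 25th percentile (0.104) or without the variance trend (0.0572). It was the 1 of 31 members called higher, where 0.724% of all 6212 probe sets were, and because it entered the tested set through its high value this count supports nothing further. By limma 0 of 31 were called lower, where 0.0483% were. At an unadjusted p under 0.05 there were 6 members in either direction, against 713 of 6212. Slfn2 was also the 1 member at least 2-fold above both other arrays at 24 h (1.3% of all probe sets), and 0 members were at least 2-fold below both (0.386%).

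A second probe set for Slfn2, with a mean signal of 61.8 and so left out of the test, read 81.4, 56.5 and 55.8 at 0 h and 85.9, 57.7 and 33.6 at 24 h for wild type, doxycycline and mutant. It was again highest with wild-type p300 at both times, with narrower gaps. Both Slfn2 probe sets have a suffix that marks possible cross-hybridisation, so their signal cannot be assigned to this gene with certainty. The paralogs Slfn1 and Slfn4 did not share the pattern of Slfn2. Slfn1 read 14.9, 55.9 and 33.7 at 24 h and Slfn4 read 31.3, 50.7 and 34.2, so that the wild-type array was the lowest of the 3 for both. Both were below the filter, with mean signals of 34.6 and 36.2, and had no test. The difference in Slfn2 over both times was 1.78 ± 0.44 (SE; limma adjusted p = 0.125).

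Class I genes read lower in the wild-type array than in both others at 24 h in 10 of 13 tested members, and at both times in 7 of 13, without passing the test. At 24 h the share of all probe sets below both other arrays was 39.6%. Among all 31 members 11 lay below both other arrays at both times, against 20.4% of all probe sets, and 4 lay above both, against 14.6%. H2-D1, a classical class I heavy chain, read 544.2, 629.4 and 686.9 at 0 h and 462.9, 619.3 and 672.3 at 24 h for wild type, doxycycline and mutant. The wild-type array was the lowest at each time, and the arrays of both other treatments were close to each other. The 24 h difference was -0.48 ± 0.17 (SE; limma adjusted p = 0.32). In both other probe sets of H2-D1 the wild-type array was also the lowest, at 392.7 against 479.1 and 516.9, and at 175.9 against 224.6 and 223.8, at 24 h.

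H2-K1, the other classical heavy chain of this group, read 561, 565.1 and 648.4 at 0 h and 419.9, 598.9 and 661.6 at 24 h. The arrays at 0 h nearly coincided for wild type and doxycycline, and the wild-type array stood apart at 24 h by -0.58 ± 0.18 (SE; limma adjusted p = 0.253). A second H2-K1 probe set of lower signal read 59.4, 106 and 99.1 at 0 h and 10.7, 124 and 111.7 at 24 h, and limma called its 24 h difference (adjusted p = 0.0147). Its wild-type value lay under the floor, so the fitted -2.84 was set by the floor and is not a measured size. Another probe set, with a plain name, read 37.6, 29 and 30.8 at 0 h, highest with wild type, and 54.3, 72.6 and 53.5 at 24 h, with wild type and mutant nearly equal. With the mean of the tested probe sets in place of the brightest, H2-K1 was called (adjusted p = 0.0111; 0.0111 to 0.558 over 13 alternatives), at a value of -1.71 that the floor sets in part. The probe sets of this gene disagree on both the size and the order.

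The further heavy chains differed in their order at 0 h. H2-K2 read 458.1, 411.3 and 304.6 at 0 h, where wild type was the highest, and 222.1, 413.2 and 450.6 at 24 h, where it was the lowest, a difference at 24 h of -0.96 ± 0.22 (SE; limma adjusted p = 0.129). Over 13 alternatives the H2-K2 difference at 24 h lay between -1.02 and -0.59. With either doxycycline array or either mutant array dropped, it lay between -1.02 and -0.9. Those fits leave 1 array in a group and called a larger share of all probe sets, so their calls are not counted here. H2-T18, a non-classical class I gene of the thymus leukaemia antigen locus, had the same turn, from 388.6, 305.8 and 201.3 to 276.6, 417.1 and 314.2. H2-Q4 read 109.7, 138.1 and 192.1 at 0 h and 112.8, 162.3 and 166 at 24 h, lowest with wild type at both times. H2-Bl read 238.1, 252.8 and 242.1 and then 218.6, 286.6 and 296.7. H2-M9 went the other way, with wild type highest at 0 h (127.8 against 97.9 and 82.3) and at 24 h (102.8 against 61 and 90.9). The brightest probe sets of H2-M2, H2-M10.1, H2-M3 and H2-Q10, at 62.7 to 164.7, differed between wild type and the mean of the others by -0.44 to 0.06 at 24 h. Another tested probe set of H2-M10.1 read 129.3, 58.8 and 201.3 and then 80.4, 117.3 and 146.4. Its 24 h difference was -0.7 (limma adjusted p = 0.734).

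B2m, the light chain shared by all class I molecules, read 1917.1, 2608.7 and 2506.8 at 0 h and 2074.9, 2240.8 and 2494.7 at 24 h. The wild-type array was the lowest at both times, by -0.42 at 0 h and by -0.19 ± 0.16 at 24 h (SE; limma adjusted p = 0.731). Tapbp, which encodes tapasin, read 312.1, 370.6 and 346.2 and then 317.8, 430.7 and 443.7, a 24 h difference of -0.46 ± 0.18 (SE; limma adjusted p = 0.368). Its second probe set read 203.5, 320.6 and 272.3 at 24 h and a further one 241.3, 301.3 and 191, where the mutant array was the lowest. Tap1 and Tap2, the subunits of the peptide transporter, had mean signals of 47.2 and 37.1 and were not tested. H2-Ke6, a steroid dehydrogenase gene that lies in the MHC region and presents no antigen, read 116.1, 163.2 and 152.4 and then 111, 217.7 and 200.3, a difference at 24 h of -0.91 ± 0.24 (SE; limma adjusted p = 0.171). Its second probe set, with a mean of 14.8, had the opposite order.

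The median 24 h difference was -0.42 over the 13 class I genes, -0.17 over all 31 members and -0.04 over all probe sets tested. Scaling to the spike-in controls moved the median of all probe sets to 0.32. Under it 8 of the 13 class I genes were below 0, against 11 with the signals as deposited, and B2m turned to 0.18, with the same factor applied to every signal of an array. Below the median of all probe sets there were 11 of the 13 with either scaling. Many class I probe sets share sequence between near-identical heavy chains, so a signal cannot be assigned to 1 chain with certainty. Fewer cells that carry a transcript and less of it per cell cannot be told apart in bulk RNA.

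**Figure D2:**
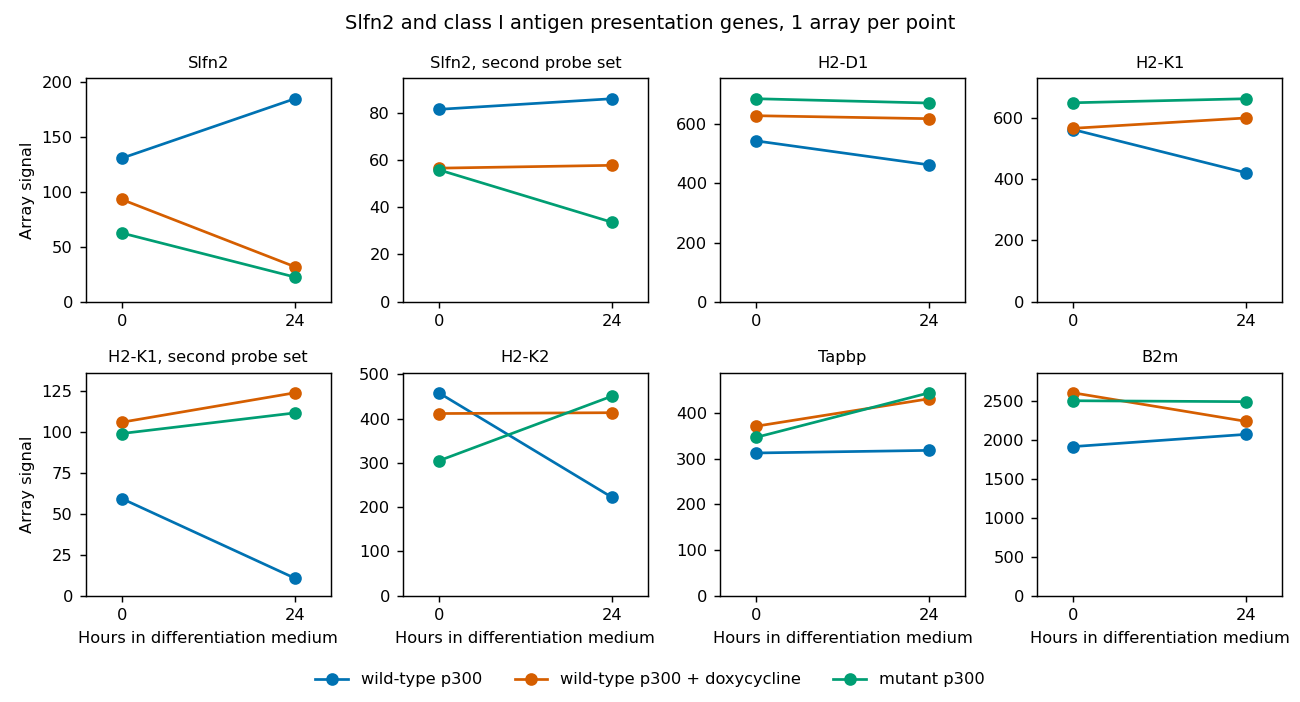
Deposited signal against hours in differentiation medium, 1 array per point and 1 colour per treatment, for the brightest probe set of 6 genes and a second probe set of Slfn2 and of H2-K1; axes start at 0. Slfn2 parts upward with wild-type p300 (185 against 31.8 and 22.4 at 24 h) and the brightest probe sets of H2-D1, H2-K1, Tapbp and B2m lie lowest there.

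Over both times together, limma called 0 of 31 members (0.531% of all probe sets), with 7 at an unadjusted p under 0.05, against 852 of 6212. Slfn2 was the 1 of these that was higher with wild-type p300, and B2m, H2-D1, H2-K1, H2-Ke6, H2-Q4 and Tapbp were lower, by 0.30 to 0.68 on the log2 scale. Both arrays of 1 treatment count as independent in this fit. At 0 h alone limma called 0 of 31 members and 0% of all probe sets, with 3 members and 262 of all at an unadjusted p under 0.05, and 0 members stood at least 2-fold above both other arrays (0.338% of all) or below both (0.177%). Irf9, a DNA-binding factor of the type I interferon response, had the widest gap at 0 h, at 60.2 against 112.6 and 129.6, with an unadjusted p of 0.0564 in limma. At 24 h it read 116.5, 74.7 and 167.5, between the others. The difference between the 24 h and the 0 h contrast was called by limma in 0 of 31 members and in 0% of all probe sets, with 4 members (H2-K2, H2-T18, Ifitm10 and Slfn2) and 197 of all at an unadjusted p under 0.05.

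**Figure D3:**
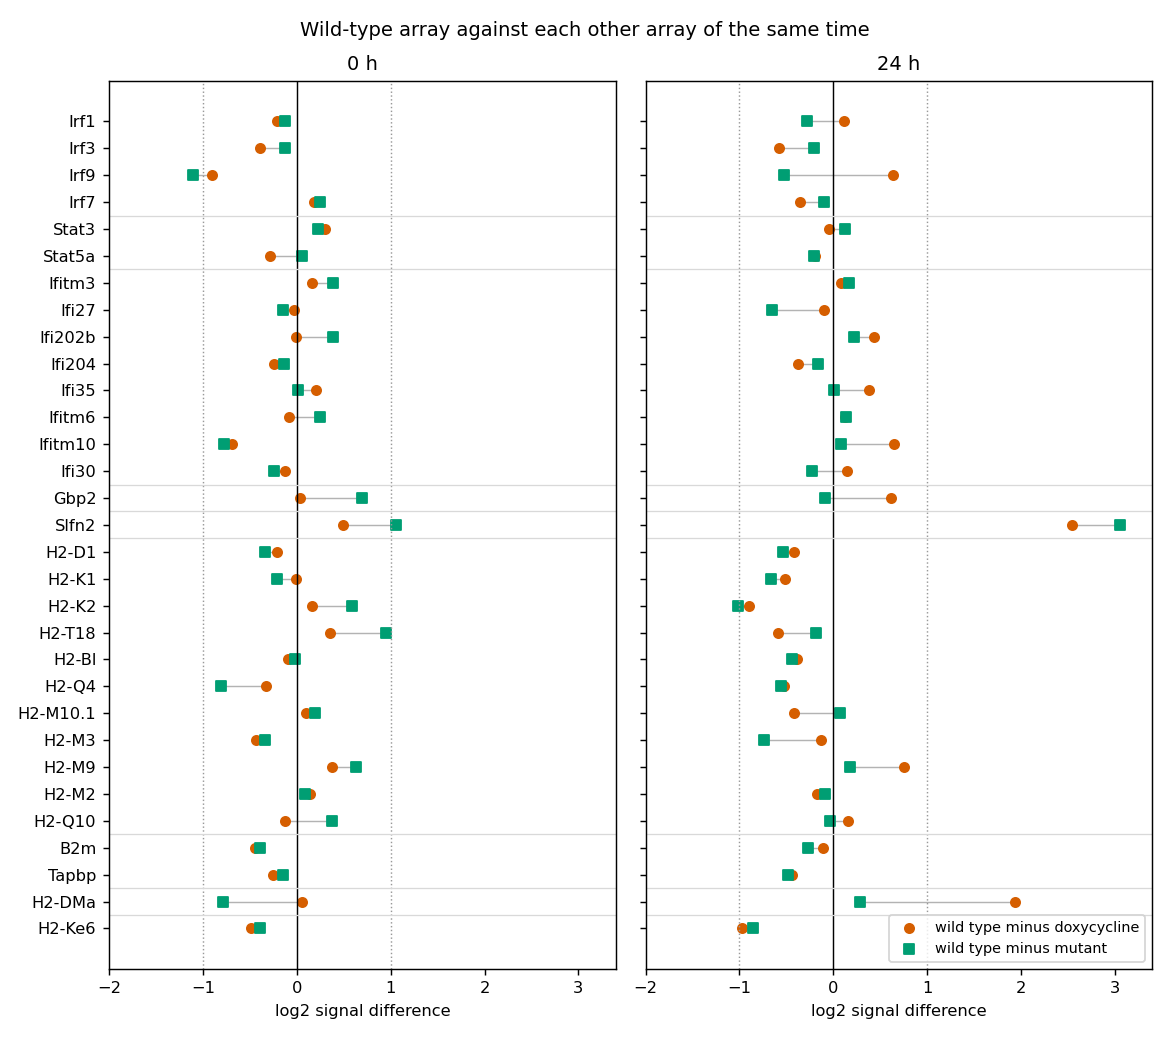
Log2 difference of the wild-type array to the doxycycline array (circles) and to the mutant array (squares) of the same time, for the 31 tested genes at 0 h and 24 h; dotted lines mark 2-fold. Slfn2 at 24 h lies at 2.54 and 3.05, and most class I genes lie left of 0 at 24 h.

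Setting 24 h against 0 h within each treatment asked which genes moved during differentiation whatever the p300 construct. Of 31 members, 3 fell and 0 rose by limma, where 9% of all probe sets fell and 7.24% rose. At an unadjusted p under 0.05 there were 6 members in either direction, against 1955 of 6212. Ifi30, a lysosomal thiol reductase that unfolds antigens for presentation, read 122, 133.4 and 144 at 0 h for wild type, doxycycline and mutant, and 78.4, 70.9 and 92 at 24 h. All values at 24 h were below all at 0 h, and the mean change was -0.73 ± 0.16 (SD, n = 3 treatments; limma adjusted p = 0.0246). Ifi204, a nuclear protein of the HIN-200 family known from myoblast differentiation, went from 239.7, 283.6 and 264.6 to 174, 226.6 and 194.3, again without overlap, by -0.41 ± 0.08 (SD, n = 3; limma adjusted p = 0.0441). Its other probe sets were dim and untested. With a mean of 23.8, the first went from 10.5, 25.4 and 7.5 to 37.2, 8.2 and 54.3, up with wild type and mutant. The next, with a mean of 22, went from 32, 26.9 and 30 to 12.7, 15.3 and 15.4. Ifi202b of the same family went from 301.8, 304.1 and 230 to 227.7, 168.7 and 195, by -0.50 ± 0.32 (SD, n = 3; limma adjusted p = 0.0491). Its values did not overlap between the times either, though the nearest were 230 and 227.7, and its change was smallest with mutant p300 and largest with doxycycline. The share of all probe sets without overlap was not counted, so lack of overlap cannot be called a trait of these 3 genes.

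These 3 calls depended on single arrays. Dropping either doxycycline array or either mutant array left 0 calls, where 7.71% to 8.95% of all probe sets were called. Dropping the wild-type array at 0 h or at 24 h gave 7 of 31, with Ifi30, Ifi202b and Slfn2 among them, where 20.7% and 19.8% of all were called. The adjusted p lay between 0.0172 and 0.156 for Ifi30, between 0.0435 and 0.197 for Ifi204 and between 0.0192 and 0.328 for Ifi202b over 14 alternatives each. No member changed at least 2-fold in 1 direction in all 3 treatments. Regardless of the test, 8 of 31 members were lower at 24 h in every treatment (25.7% of all probe sets) and 7 were higher (25.5%).

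**Figure D4:**
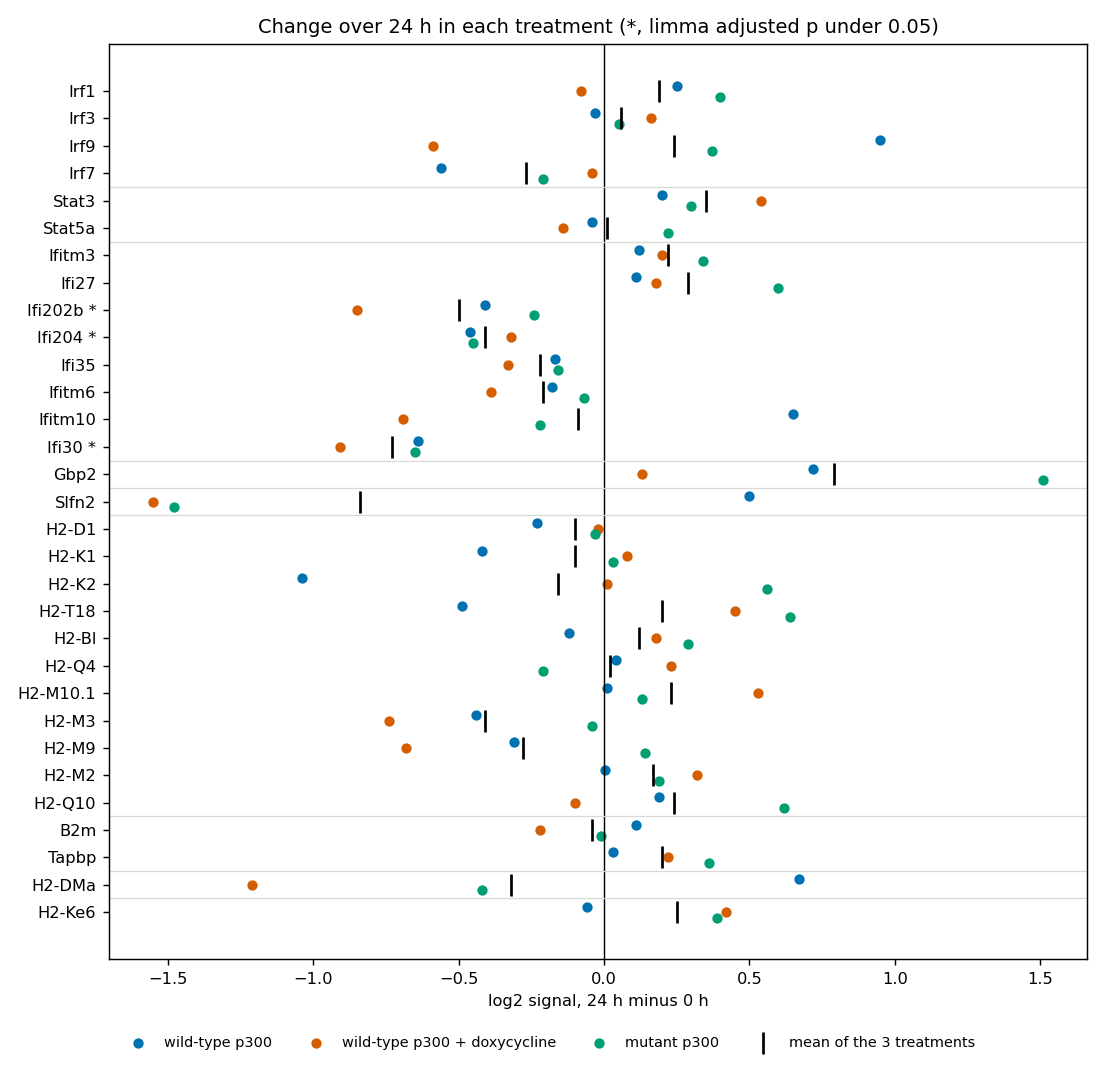
Log2 signal at 24 h minus 0 h in each treatment (points) and its mean (black bar) for the 31 tested genes; stars mark limma adjusted p under 0.05. Ifi30, Ifi204 and Ifi202b lie left of 0 in all 3 treatments, and Slfn2 is split, at 0.50 with wild-type p300 and -1.55 and -1.48 in the others.

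Among the transcription factors of the pathway none was called by limma in any comparison as fitted here, and Stat3 came closest. Stat3, which carries signals of interleukin-6 and its relatives, read 578.1, 470.8 and 494.5 at 0 h and 662.2, 684.2 and 609.2 at 24 h, higher at 24 h in each treatment by a mean of 0.35 ± 0.18 (SD, n = 3; limma adjusted p = 0.0521). A second Stat3 probe set went from 308.6, 307.8 and 316 to 462.7, 479.3 and 553.8 and rose by 0.68 (limma adjusted p = 0.00302). Limma also called Stat3 higher at 24 h with the floor at the 40th percentile, with the mean of its probe sets, and without either wild-type array. Stat5a, a factor of cytokine and growth hormone signals, read 444, 540.2 and 425.3 at 0 h and 432.1, 491.3 and 495.5 at 24 h, with no steady order of the treatments. A second Stat5a probe set read 214.5, 221.9 and 245.4 and then 157, 262.2 and 225.1. It was lowest with wild type at both times and was not called. Irf1, an early interferon response factor, read 173.7 to 250.6, and Irf3 and Irf7, which drive interferon genes after virus sensing, read 93.8 to 140.3 and 70.9 to 104.8. Another Irf7 probe set, with a plain name, read 9.6 to 24.6, above the floor only with wild type at 24 h. Irf4 and Stat6 were under the floor on all arrays, and Irf8 and Irf5, at mean signals of 35.4 and 60.2, fell below the filter.

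The brightest antiviral effector was Ifitm3, a membrane protein that blocks virus entry. It read 3339.4, 2994 and 2550.3 at 0 h and 3617.2, 3430.2 and 3222.3 at 24 h. Each treatment was higher at 24 h, by 0.22 ± 0.11 (SD, n = 3; limma adjusted p = 0.167), and wild type was the highest at both times. Ifi27, a small interferon-induced membrane protein, read 646.1, 661.3 and 719.2 and then 695.3, 747.7 and 1089.2, with the mutant array at 24 h above the rest. Ifi35 read 155.8 to 226.6 and Ifitm6 123.7 to 164.1. Ifitm10 read 87.4, 141.1 and 150.2 at 0 h, lowest with wild type, and 137, 87.5 and 129.3 at 24 h, highest with wild type. Gbp2, a GTPase that attacks the vacuoles of intracellular microbes, read 67.1, 65.8 and 41.4 at 0 h and 110.3, 72 and 117.8 at 24 h, a mean change of 0.79 ± 0.69 (SD, n = 3; limma adjusted p = 0.0995). Like Slfn2 it passed the filter through its highest array, with a mean of 71.3 over the other 5.

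Most classical antiviral genes were dim, and 15 of 23 interferon-induced effectors lay below the filter, with mean signals of 3.4 to 62.6. A few of them were picked out after their values were seen, because they were high on the wild-type array at 24 h. Ifit1, which binds foreign RNA, read 6.2, 3.4 and 4.4 at 0 h and 33, 6.4 and 6.3 at 24 h, so that the wild-type array at 24 h was the only one above the floor, at least 2.01-fold above it. Mx1, a GTPase against influenza virus, read 14.1, 1.4 and 18.7 and then 66.4, 1.7 and 13.3, at least 4.05-fold above the floor with wild type at 24 h. Ifit2, a relative of Ifit1, read 63, 52.8 and 42.8 and then 128.8, 55.3 and 32.7. These 3 were highest with wild-type p300 at 24 h, and Stat4, at 6, 15.8 and 9.9 and then 30.3, 8.6 and 6.6, was as well.

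Gbp2b read 68.6, 6.5 and 45.2 at 24 h after 8.2, 17.1 and 6.7 at 0 h, and Mx2 read 45.7, 30.6 and 21.8, again highest with wild type but with narrower gaps to the next array. Ifit3 and Isg15 had another order. Ifit3 read 35.7, 34.9 and 50.4 at 24 h and Isg15, the ubiquitin-like modifier, 74, 19.1 and 82.4, with the mutant array highest. Oas1g, Ifi209 and Ifi47 were under the floor on all 6 arrays. Without the filter limma called Ifit1, Mx1 and Stat4 higher with wild-type p300 at 24 h but not Slfn2, where it called 192 of 12422 probe sets (1.55%) in either direction. Ifit1 and Stat4 were at the floor on 5 of the 6 arrays, so little spread was left for that test. With the filter at the 25th percentile it called 0 members and 0 of 9316 probe sets. Sums of markers of other cells are given for the same array. The summed signal of 10 endothelial markers was 499.5 there and 316.1 to 428.7 on the others. Without Tek, at 116.3 there and 2.8 to 19.5 elsewhere, it was 383.2 against 409.2 in the wild-type array at 0 h. The doxycycline and mutant arrays at 24 h then gave 376.7 and 313.8. Emcn was also at least 2-fold above both others at 24 h, at 38 against 9.7 and 4.9. Pecam1, Flt1 and Vwf were also highest of the 24 h arrays, and Kdr was lowest. The endothelial marker that was tested, Eng, read lowest there, at 178.3. The sum of 8 epithelial markers was 403.8 against 273.8 to 364.3, while Cdh1, the one tested, read 154.4 against 206.5 and 183.9 at 24 h. Untested Krt8 (45.9 against 10.4 and 20), Cldn3 (84.9 against 40.4 and 33.7) and Cldn4 (72.9 against 15.2 and 30.5) were at least 2-fold higher there. Krt18 lay between the others, and Epcam, Krt19 and Cldn7 were under the floor there. The sum of 20 leukocyte markers was 1311.4 against 998 to 1336.7, with 6 of the 20 under the floor on all arrays. Untested Itgb2 was at least 2-fold above both others at 24 h, at 41.1 against 18.9 and 3.7. Cd52, C1qc and Coro1a were among those also highest of the 24 h arrays, and Csf1r and C1qa were lowest. The sum of 10 measured lymphocyte markers was 265.6 against 249.8 to 287.4, with 5 under the floor. None of these markers was listed at 0. Their part in the dim genes and in Slfn2 was not tested.

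**Figure D5:**
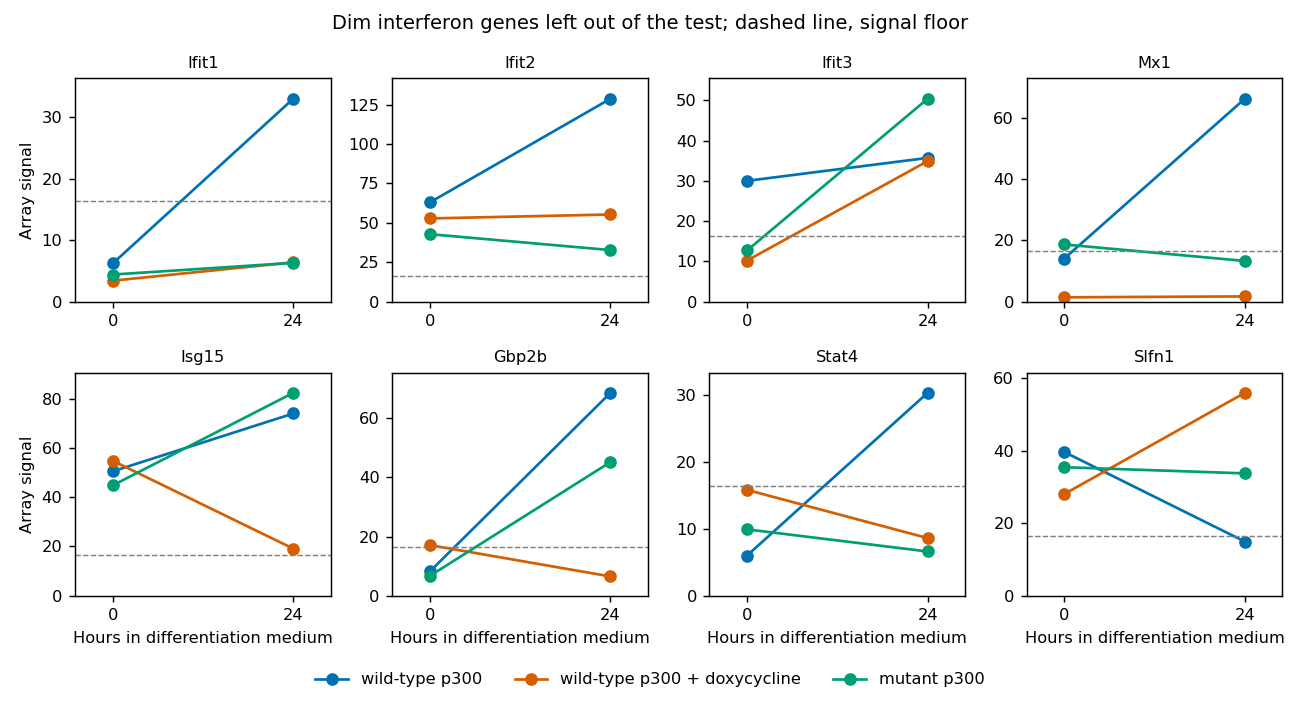
Deposited signal against hours in differentiation medium for 8 dim genes left out of the test, 1 array per point; the dashed line is the floor of 16.4. Ifit1, Ifit2, Mx1, Gbp2b and Stat4 are highest with wild-type p300 at 24 h, whereas Ifit3, Isg15 and Slfn1 are not.

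Class II genes were dim. Of 11 members 10 lay below the filter, with mean signals of 3.8 to 52.8. H2-Oa and H2-Eb1, at means of 52.8 and 49.6, were above the floor on every array, and H2-Aa, H2-Ea and H2-Eb2 were under 16.4 on all arrays. The tested one was H2-DMa, a chaperone chain that edits class II peptides. It read 112, 107.8 and 194.1 at 0 h and 178.2, 46.5 and 145.5 at 24 h, lowest in the doxycycline array at both times. Its second probe set read 23 to 29.7 on all arrays.

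The comparison of doxycycline with mutant p300, both followed by death, was called by limma in 0 of 31 members and in 0% of all probe sets, with 2 members and 818 of all at an unadjusted p under 0.05. Those 2 members were H2-DMa, at -1.25 for doxycycline minus mutant over both times, and Ifi27, at -0.33. At 24 h, H2-DMa (46.5 against 145.5) and Irf9 (74.7 against 167.5) were at least 2-fold lower with doxycycline, 2 of 31 members against 0.934% of all probe sets, and 0 members were at least 2-fold higher (1.34%). At 0 h, 0 members were 2-fold lower (0.467%) or higher (0.531%). For Slfn2 the difference was 0.54 over both times, and for H2-D1 and H2-K1 it was -0.12 and -0.17.

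Genes that act with these members but bear other names were counted from 4 lists. Of 11 tested receptor and JAK-STAT control genes, none was called by limma in any of the comparisons, where the share of all probe sets called in either direction was 16.2% for time, 0.773% for outcome at 24 h, 0.531% for outcome over both times and 0% for the rest. So few genes say little at these shares. The interferon genes measured on the receptor list, named here after their values were seen, were all below the filter. Ifng lay under the floor on all arrays, Ifnb1 at 5.1 to 29.5, Ifna4 at 6 to 33.6 and Ifna2 at 15.3 to 47.8. Ifna2 was highest with wild-type p300 at 24 h. None of 5 tested virus sensing genes was called. Of 14 other interferon-induced genes, 1 rose and 1 fell with time, near the 7.24% and 9% of all probe sets. Casp4, an inflammatory caspase, went from 211.6, 327.1 and 193.4 to 354.3, 481.6 and 322.5, by 0.68 (limma adjusted p = 0.00379). Lgals9, a galectin, went from 237, 348.7 and 382.4 to 129.4, 230.2 and 229.9, by -0.74 (limma adjusted p = 0.00394). The wild-type array was also its lowest at each time, by -0.73 over both times (limma adjusted p = 0.0553). Of 9 peptide loading and processing genes, 1 rose and 1 fell with time, against the same 7.24% and 9%. Lgmn, a lysosomal protease, went from 706.6, 575.5 and 563 to 987.7, 641.9 and 802.8, by 0.38 (limma adjusted p = 0.038). Pdia3, a disulfide isomerase of the class I loading complex, went from 704.7, 950.1 and 779 to 585.1, 732.8 and 521.6, by -0.41 (limma adjusted p = 0.0249). The chemokine gene Ccl5 and the receptor gene Il15ra were named because they were seen to be high with wild-type p300 at 24 h. Both were below the filter and without a test. They read 109.4 against 5.5 and 7.3, and 77.8 against 27 and 16.2, at 24 h. Ccl5 was at or under the floor on the other 5 arrays. On its list 8 of 31 genes, among them Rsad2, Cxcl9 and Cxcl10, were under the floor on every array.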

How the data were processed

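Total RNA of 6 infected C2AS12 myoblast samples was biotin-labelled and hybridised to 6 arrays. The deposited values are linear intensity per probe set; MAS5 is named in the submitters' processing notes, with no version or settings, and detection calls were not used here. Of 12488 probe sets, 66 controls were left out. The rest had 1 symbol (10833), several (396) or none (1193). The signals were used as deposited, floored at 16.4 and taken to log2, and the 6212 probe sets with a mean signal of at least 75.2 were tested with limma 3.58.1 in R 4.3.3 (lmFit, eBayes with a variance trend, 2-sided, Benjamini-Hochberg over all probe sets, called at an adjusted p under 0.05). Time had treatment as a block (2 residual degrees of freedom). Outcome over both times had time as a term (3). Outcome at each time and the difference between times came from 1 mean for each outcome and time (2). The fits were tested on simulated data first.

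The gene rule, lists and alternatives were chosen with earlier results of these data known. Every gene of the rule was counted. Values on each array are given for tested genes called in a fit, for those at least 2-fold from both other arrays of a time or changed 2-fold in all 3 treatments, and for the 12 brightest; others named are examples of their group. Symbols came from the probe annotation, and all 74 matched the RefSeq annotation of GRCm38.p6, from which promoters were read. Alternatives were the floor, the filter, the normalization, the variance trend, the choice of probe set and leaving out each array.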

Additional observations from a re-analysis of the deposited data

How the results depend on the processing

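The number of arrays, 1 per group, limits the precision. With no filter limma called 0 of 74 members for time (0% of all probe sets), 3 for outcome at 24 h (1.55%) and 2 for the difference between times (1.97%). With the filter at the 25th percentile it called 1 of 60 for time (9.77%) and 0 for outcome at 24 h (0%). Without the variance trend the counts were 1 for time (11.3% of all probe sets) and 0 for outcome at 24 h (0.177%). Scaling to the spike-in controls gave 1 for outcome over both times (Slfn2) and 1 for doxycycline against mutant (H2-DMa), and turned B2m at 24 h to 0.18. Over all probe sets it raised the calls from 33 to 237 for outcome over both times, from 48 to 422 (6.78%) for outcome at 24 h and from 0 to 15 for doxycycline against mutant. The mean of all tested probe sets gave 2 for outcome at 24 h (Slfn2 and H2-K1), where 0.758% of all were called. Leaving out each array in turn gave 0 to 7 for time, where 7.71% to 20.7% of all probe sets were called. Counts of the other comparisons are not given for these fits, because many of them leave 1 array in a group. The outcome at 24 h had no fit without the wild-type array at 24 h. Other floors and quantile normalization moved none of these counts by more than the limit of 1.5 times. The causes of these shifts were not tested.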

Other observations

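Probe sets annotated to several genes of these families belong to no single member, and 8 of 16 were bright enough to be tested. The probe set shared by Mndal, Ifi211, Ifi205 and Ifi204, all of the HIN-200 family, read 248.7, 207.8 and 144.2 at 0 h for wild type, doxycycline and mutant and 90.9, 119.3 and 73.3 at 24 h, a change of -1.08 (limma adjusted p = 0.00434). The probe set of H2-T23 and the pseudogene H2-T-ps, non-classical class I, read 59.5, 81.9 and 71.2 and then 99.7, 136.7 and 121.4, higher by 0.75 (limma adjusted p = 0.0263), with the wild-type array lowest at both times. That of H2-Q9, H2-Q7 and H2-Q5 read 267.2, 319.8 and 377.3 and then 234.3, 357.6 and 407.8, lowest with wild type at both times and not called. That of H2-T3 and H2-T18 went the other way. It read 88.2, 85.4 and 80.5 and then 86.3, 82.9 and 55.3, highest with wild type at both times. In a probe set of H2-T9, H2-T22 and H2-T10 wild type lay between the others at 24 h, at 281.6 against 276.2 and 352.8. The remaining tested class I probe sets of several genes were lowest with wild type at 24 h and not called. The shared probe set of Slfn3 and Slfn4 read 0.7 to 8.6, under the floor on all arrays.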
